A study of Mus musculus with 33 samples.

Results

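Glycolysis and glucose uptake were followed through 10 genes in cultures of mouse retinal progenitor cells: the transporter gene Slc2a1, the hexokinase genes Hk1 and Hk2, the phosphofructokinase genes Pfkp and Pfkl, the aldolase genes Aldoa and Aldoc, the pyruvate kinase gene Pkm, and the lactate dehydrogenase genes Ldha and Ldhb. They were taken by symbol from the count tables, which hold 47729 genes, of which 32488 had any count. All 10 passed the filter on low counts that left 18150 genes for testing, and each had at least 16 counts in every library. RNA was sequenced from 33 libraries in 11 groups of 3. The cells were progenitors from C57BL/6J retina at embryonic day 14, and no other allele is named. At day 0 they were untreated, cone primed with COCO protein, or rod primed with taurine and retinoic acid. At days 5, 12, 21 and 35 they were cone induced with COCO protein or rod induced with taurine and retinoic acid. COCO (the product of Dand5) binds and blocks ligands of the BMP, TGF-beta and Wnt families outside the cell. Retinoic acid is a vitamin A derivative that acts through nuclear receptors, and taurine is a sulphur-containing amino acid abundant in retina. The labels do not say whether the libraries of a group came from separate cultures, so p-values measure the spread between these libraries, which may be technical.

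Glycolysis splits glucose into pyruvate in the cytosol. GLUT transporters bring glucose in, hexokinase traps it as glucose 6-phosphate, phosphofructokinase makes the committed step, aldolase splits the sugar, pyruvate kinase makes pyruvate, and lactate dehydrogenase converts pyruvate to lactate and back. The retina is known for turning much of its glucose into lactate even with oxygen present, and photoreceptors take a large part in this. Dividing progenitors also rely on glycolysis. Many of these genes are known targets of the hypoxia-inducible factors (HIF), which bind a short DNA core, ACGTG or GCGTG.

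The libraries held 7511837 to 19166442 counts in genes (median 12985662), and the 10 genes together took 0.0971% to 0.262% of them. Levels are CPM, each gene's count scaled to a common library size by edgeR, and a floor of 3 counts in any library lies below every value given for the 10 genes. A gene was called at an adjusted p under 0.05 by edgeR's quasi-likelihood test over all 18150 genes, and the error beside a log2 fold change is its standard error (SE). Where groups are said not to overlap, this describes the printed values only. The share of all genes without overlap is not given, and an exact test on 3 libraries a side cannot go below 0.1. The conditions were checked against 12 photoreceptor markers. These summed to 848 to 1721 CPM in the primed libraries, but to 12.0 to 175 CPM in the cone and rod libraries of days 21 and 35. Opn1sw, the short-wavelength cone opsin gene, was at 0 in all 3 cone day 35 libraries, and the rod factor gene Nr2e3 was at 0 in all 3 rod day 35 libraries. The cone gene Arr3 went with the labels. It was at 0 in all 3 rod libraries of day 21 and of day 35, but not in all 3 cone libraries of either day. Rod day 12 replicate 2 stood apart. Its photoreceptor sum was 1447 CPM against 100 and 194 CPM in the other rod day 12 libraries, and its sum over 10 cell cycle genes was 711 against 1712 and 1231 CPM. Whether its label is right was not tested, so the tests of the 10 genes that use it are given with and without it.

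On mouse build GRCm38, the genes lie as follows in the deposited tables. Slc2a1 is at chr4:119108711-119137983 (plus strand), Hk1 at chr10:62268855-62379908 (minus), and Hk2 at chr6:82725025-82774454 (minus). Pfkp is at chr13:6579768-6648777 (minus), Pfkl at chr10:77986947-78010083 (minus), Aldoa at chr7:126795234-126809108 (minus), and Aldoc at chr11:78322968-78327781 (plus). Pkm is at chr9:59656368-59679375 (plus), Ldha at chr7:46841475-46855627 (plus), and Ldhb at chr6:142490249-142507957 (minus). The exons of Pfkp share 748 bases with those of Pitrm1 on the opposite strand, a gene with a median of 761 counts per library against 392 for Pfkp. The strand setting of the counting is not given in the sources used here, so reads over those 748 bases cannot be told apart, and the Pfkp values are uncertain to that extent. Near-identical stretches of at least 100 bases (95% identity) occur in 5 other genes for Ldha, 2 for Pkm and 1 for Ldhb, with median summed counts of 7, 39 and 2 per library beside 2052, 5395 and 518 for the genes themselves.

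The sequence upstream of 4 of the genes is shown. In the day 5 comparison below, Hk2, Pfkp and Ldha were higher in cone than in rod libraries. Ldhb, which encodes the partner subunit of Ldha, was not called. The 4 do not cover both directions, since Slc2a1 and Hk1, the genes lower in cone libraries at that day, are not among them. Each line gives the 250 bases before a RefSeq start on GRCm38.p6, 5′ to 3′ on the strand of the gene, with ACGTG or GCGTG on either strand (CACGT or CACGC on the strand shown) in capitals.
Hk2, chr6:82774455-82774704, minus strand: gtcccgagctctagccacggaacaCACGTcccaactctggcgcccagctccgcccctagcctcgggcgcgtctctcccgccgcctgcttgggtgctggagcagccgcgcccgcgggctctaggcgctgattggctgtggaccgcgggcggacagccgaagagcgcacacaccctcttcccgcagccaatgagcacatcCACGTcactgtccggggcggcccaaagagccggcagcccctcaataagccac
Pfkp, chr13:6648772-6649021, minus strand: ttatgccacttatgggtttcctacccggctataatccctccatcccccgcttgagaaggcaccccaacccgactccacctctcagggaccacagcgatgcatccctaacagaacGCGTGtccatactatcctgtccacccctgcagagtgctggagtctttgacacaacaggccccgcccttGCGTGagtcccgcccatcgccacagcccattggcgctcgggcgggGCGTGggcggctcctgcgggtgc
Ldha, chr7:46845554-46845803, plus strand: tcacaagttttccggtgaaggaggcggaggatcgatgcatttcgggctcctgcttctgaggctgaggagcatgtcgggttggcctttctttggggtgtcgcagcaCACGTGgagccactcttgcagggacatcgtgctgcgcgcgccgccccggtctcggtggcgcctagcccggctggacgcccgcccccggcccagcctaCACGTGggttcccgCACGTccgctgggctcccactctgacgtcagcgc
Ldhb, chr6:142507958-142508207, minus strand: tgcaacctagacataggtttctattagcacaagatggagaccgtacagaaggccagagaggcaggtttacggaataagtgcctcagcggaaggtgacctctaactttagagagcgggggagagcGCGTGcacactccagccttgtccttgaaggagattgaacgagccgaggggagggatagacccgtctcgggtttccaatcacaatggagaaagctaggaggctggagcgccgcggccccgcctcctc

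The Ldha window held 5 matches, of which 4 came in overlapping pairs within 2 copies of CACGTG. Hk2 had 2 matches, Pfkp 3 and Ldhb 1. The other Ldha start, not shown, had 1. Slc2a1, lower in cone libraries at day 5, had 2, and Hk1, also lower, had 0 and 3 by start. Of the other genes higher at day 5, Pfkl had 1, Aldoc 1 at each start, and Aldoa and Pkm 0 or 1 by start. Whether the matches go with the direction at day 5 was not tested. RefSeq gave 16 starts for the 10 genes, and 13 of the 16 windows held at least 1 match. Among 32851 promoter windows of the same length, 38.6% held at least 1 match, 16.7% held 2 or more, and 6.02% held CACGTG. Genes with several starts count more than once in these numbers. A match is a run of letters in this window and nothing more.

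Per kilobase of exon, Pkm was the most abundant of the 10 transcripts in 9 of 11 groups, or in 10 of 11 with the longest coding transcript as the length. In untreated cells its level was 103 ± 6.59 CPM per kb (SD, n = 3). Hk2 was the least abundant there at 0.505 CPM per kb, and it ranked last or next to last of the 10 in all 11 groups on either length. In the rod libraries of day 5 Slc2a1 ranked 2 on merged exons and 4 on the longest transcript. The order in the middle thus depends on the length used, and neighbours there are not compared.

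**Figure D1:**
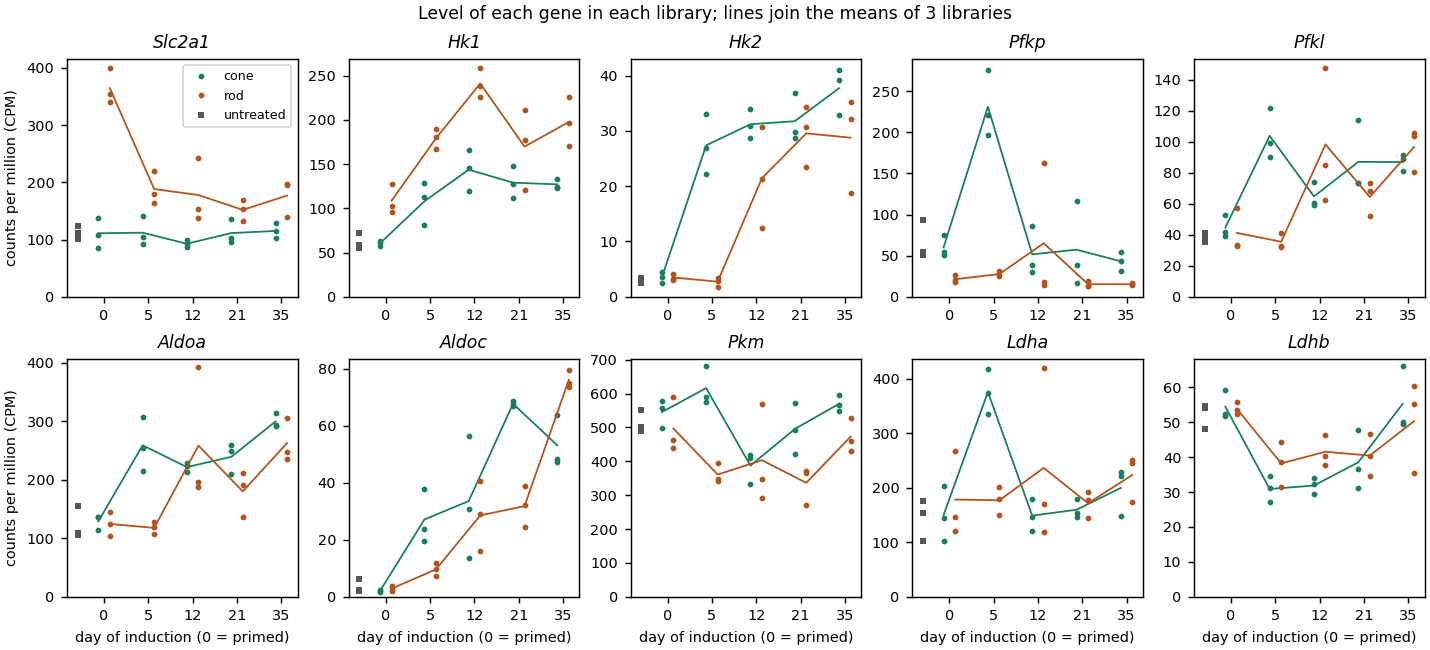
Level of each gene (CPM, linear axis from 0) in each library by day of induction, with days equally spaced. Points are libraries, lines join means of 3 libraries for cone (green) and rod (brown), and grey squares are untreated cells; cone Hk2 is at 22.3 CPM or more from day 5, while rod Hk2 at day 5 is at 3.48 CPM or less.

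The comparison of primed with untreated cells asked what priming alone did to these genes. After cone priming 0 of the 10 were called by edgeR or by DESeq2, 0 had an unadjusted p under 0.05, and over all genes 0 were called (0.00%). Rod priming raised Slc2a1 and Hk1, 2 of the 10, against 10.3% of all genes called. The median log2 fold change of the 10 genes was 0.08, beside 0.00 over all genes tested.

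Slc2a1 encodes GLUT1, the basal glucose transporter of most cells and of the blood-retina barrier. In untreated cells it was at 110.8, 100.2 and 124.1 CPM, in cone primed cells at 108.6, 138.3 and 85.8 CPM, and in rod primed cells at 340.7, 353.4 and 399.5 CPM. All 3 rod primed libraries thus lay above the other day 0 libraries. The log2 fold change of rod primed over untreated cells was 1.71 ± 0.20 (3.26-fold, adjusted p 1.77e-06). Hk1 encodes the widely expressed hexokinase that binds to mitochondria. It was at 54.6, 72.3 and 58.7 CPM in untreated and at 95.3, 102.9 and 127.7 CPM in rod primed cells, again without overlap. Its log2 fold change was 0.81 ± 0.17 (adjusted p 0.0031). Pfkp, the platelet-type phosphofructokinase gene, was at 19.8, 17.5 and 26.5 CPM in rod primed cells against 54.8, 50.3 and 93.2 CPM in untreated cells. These ranges did not overlap, but the difference was not called (log2 fold change -1.63 ± 0.63, adjusted p 0.10). It passed with voom quality weights (adjusted p 0.0024) and in a model of the compared libraries alone (0.0027).

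Between cone primed and rod primed cells the same pair of genes was called, 2 of 10 against 7.27% of all genes; both were lower in cone primed cells (4.77% of all genes) and 0 were higher (2.50%). Slc2a1 stood lower in cone primed cells, at a log2 difference of -1.72 ± 0.20 (adjusted p 2.08e-06), as did Hk1 at -0.85 ± 0.18 (adjusted p 0.0029). Both comparisons of rod primed cells share their libraries, so they do not count separately. All of these calls held when any 1 library was left out. Pfkp was at 53.9, 75.6 and 50.6 CPM in cone primed cells, above all 3 rod primed libraries, and was not called (1.49, adjusted p 0.17). It passed with voom quality weights (adjusted p 0.014) and with the compared libraries alone (0.0025), either of which makes 1 gene higher. Cell cycle markers moved between rod primed and untreated cells, where 10.3% of all genes were called in either direction. Of 10 such markers 6 were higher in rod primed than in untreated cells, with summed levels of 1884 to 2370 CPM against 869 to 1321 CPM. Muller glia markers did so as well, with 8 of 10 higher (2061 to 2464 against 826 to 1017 CPM). Of 10 retinal progenitor markers 5 were higher and 2 lower (1397 to 1760 against 1001 to 1123 CPM). Their part in the rise of Slc2a1 and Hk1 was not tested. In such bulk samples a change in the share of a cell type and a change in RNA per cell cannot be told apart.

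At day 5 the conditions differed at 9 of the 10 genes, against 9.28% of all genes called. In cone libraries 7 were higher, against 3.48% of all genes, namely Hk2, Pfkp, Pfkl, Aldoc, Aldoa, Ldha and Pkm. Slc2a1 and Hk1 were lower, against 5.80% of all genes. Ldhb was not called. The median log2 fold change of the 10 was 1.11, beside 0.01 over all genes.

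**Figure D2:**
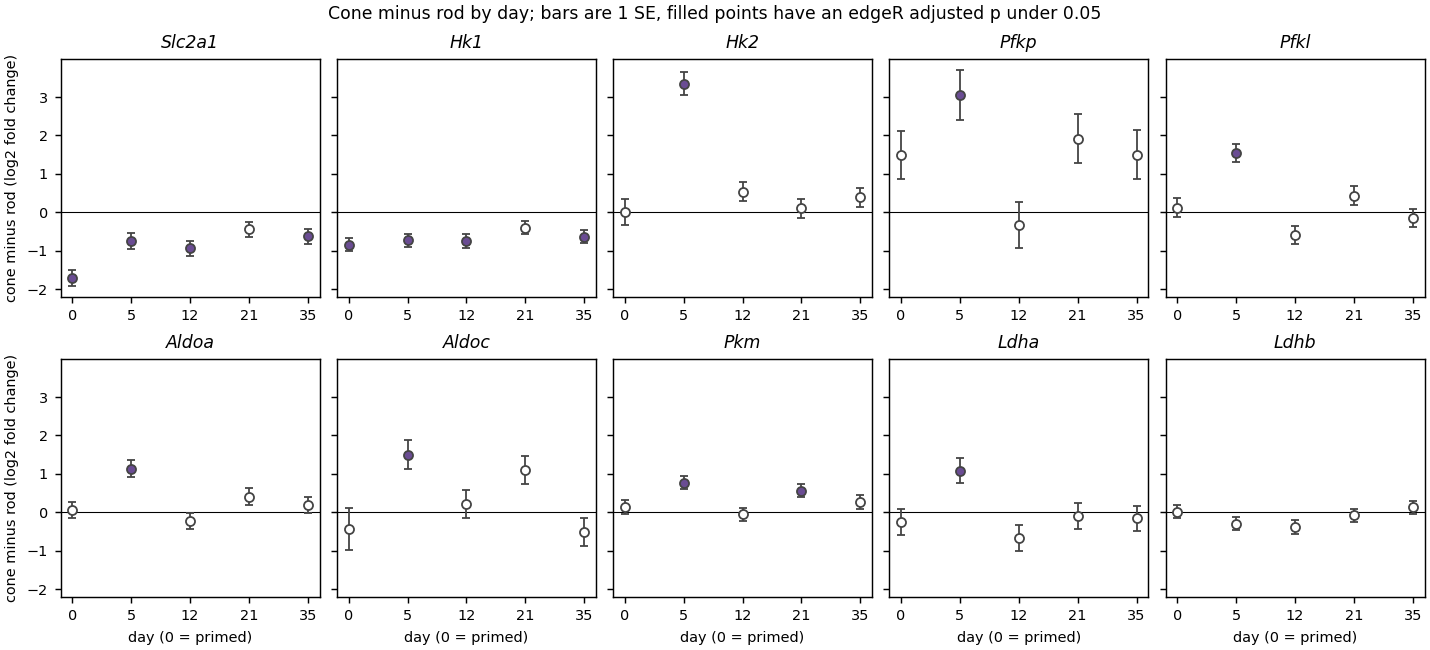
Cone minus rod log2 fold change of each gene by day (0 is primed), on 1 shared axis. Bars are 1 SE and filled points have an edgeR adjusted p under 0.05; most filled points are at day 5, with Hk2 at 3.35 and Pfkp at 3.06, while Slc2a1 lies below 0 at every day.

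Hk2 encodes the inducible hexokinase, a HIF and insulin target that in adult retina is found mainly in photoreceptors. At day 5 it was at 33.1, 26.9 and 22.3 CPM in cone libraries and at 3.48, 1.79 and 2.92 CPM in rod libraries. The rod libraries were at the level of untreated cells (3.45, 2.47 and 3.12 CPM), and all 3 cone libraries lay far above both. The difference was 10.2-fold (log2 fold change 3.35 ± 0.30, adjusted p 3.24e-08). Pfkp stood at 276.0, 221.4 and 196.3 CPM in cone against 26.5, 24.7 and 31.8 CPM in rod libraries. This 8.35-fold difference (log2 fold change 3.06 ± 0.65, adjusted p 0.0026) was the next largest of the 10. Pfkl, the liver-type phosphofructokinase gene, was at 121.7, 99.3 and 90.4 CPM in cone and at 33.0, 32.3 and 41.0 CPM in rod libraries, 2.92-fold apart (log2 fold change 1.55 ± 0.24, adjusted p 0.00012). None of these 3 genes overlapped between the conditions (the share of all genes without overlap is not given), and each kept its call without any 1 library.

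The aldolase genes moved the same way at this day. Aldoa, the muscle-type and most widely expressed aldolase gene, was at 307.1, 254.0 and 215.1 CPM in cone and at 118.8, 106.7 and 127.2 CPM in rod libraries (log2 fold change 1.14 ± 0.21, adjusted p 0.00087). Aldoc, the brain-type aldolase gene, was at 37.9, 23.7 and 19.6 CPM against 9.77, 7.22 and 11.7 CPM (log2 fold change 1.50 ± 0.38, adjusted p 0.012). The groups did not overlap for either gene. The Aldoc call was lost without cone day 5 replicate 1 (log2 fold change 1.21, adjusted p 0.085) and without rod day 5 replicate 2 (1.32, adjusted p 0.066).

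At the pyruvate and lactate steps, Pkm was at 681.7, 590.7 and 576.3 CPM in cone and at 340.7, 347.8 and 394.5 CPM in rod libraries (log2 fold change 0.77 ± 0.17, adjusted p 0.0044). Ldha, the gene of the subunit that favours lactate formation, was at 418.4, 372.7 and 335.4 CPM in cone and at 150.1, 201.6 and 178.7 CPM in rod libraries. Its groups did not overlap either, and the log2 fold change was 1.09 ± 0.33 (adjusted p 0.039). That call was lost when any 1 of the 6 libraries was left out, with adjusted p between 0.055 and 0.17 and log2 fold changes between 0.98 and 1.19. Ldhb, the gene of the subunit that favours lactate use, was at 34.6, 31.1 and 27.0 CPM in cone and at 44.5, 31.5 and 38.8 CPM in rod libraries. The conditions overlapped for Ldhb (log2 fold change -0.30 ± 0.17, adjusted p 0.30).

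The genes of uptake and of the constitutive hexokinase stood the other way round. Slc2a1 was at 140.4, 103.9 and 91.4 CPM in cone and at 220.5, 164.3 and 179.6 CPM in rod libraries at day 5 (log2 fold change -0.75 ± 0.20, adjusted p 0.015). Hk1 was at 113.0, 129.0 and 81.4 CPM against 180.5, 167.2 and 189.1 CPM (log2 fold change -0.73 ± 0.17, adjusted p 0.0065). Neither gene overlapped between the conditions. Slc2a1 lost its call without cone day 5 replicate 2 (log2 fold change -0.66), cone day 5 replicate 3 (-0.59) or rod day 5 replicate 1 (-0.62). Hk1 lost it without cone day 5 replicate 3 (-0.53).

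Cell cycle markers also differed at day 5, with 9 of 10 called lower in cone libraries (606 to 814 CPM summed, against 1478 to 1681 CPM in rod libraries). Photoreceptor markers summed to 1927 to 2422 CPM in cone and 914 to 1635 CPM in rod libraries, with 1 of 12 called higher and 0 lower. Mesenchyme markers summed to 28.5 to 91.2 against 7.65 to 21.7 CPM, with 3 called higher and 1 lower of 9 tested. Muller glia markers summed to 1770 to 2118 CPM in cone and 2612 to 3089 CPM in rod libraries, with 2 of 10 lower and 0 higher. Retinal progenitor markers summed to 794 to 849 against 990 to 1124 CPM, with 1 of 10 higher and 5 lower. None of these 5 marker sums overlapped between the conditions, and they are the only ones of 11 marker lists of which this holds at day 5. The sums of astrocyte, microglia, endothelium, retinal pigment epithelium, retinal ganglion cell and red blood cell markers all overlapped. The part of these cell types in the differences at the 10 genes was not tested.

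The rest of the pathway was read from 6 lists, of which 78 of 87 genes were tested. The list counts at day 5 stand beside 3.48% of all genes called higher and 5.80% called lower in cone libraries. Of 12 other glycolytic enzyme genes, 5 were higher and 2 lower in cone libraries at day 5. Those with the largest changes were Hkdc1, a hexokinase-domain gene, at 4.01, 3.16 and 5.00 CPM in cone against 45.2, 29.6 and 40.8 CPM in rod libraries (log2 fold change -3.24 ± 0.38, adjusted p 3.12e-06), and Eno2, the neuronal enolase gene (1.34 ± 0.38, adjusted p 0.022). The other higher genes were Tpi1, Pgam1, Pgk1 and Gapdh (log2 fold changes of 1.03, 0.95, 0.85 and 0.82), and Eno1, the ubiquitous enolase gene, was the other lower gene at -1.27. These 5 were named after their values were seen, and Gapdh and Eno1 have near-identical copies in the mouse genome between which reads could be split. The list had a median log2 fold change of 0.22. Its summed level went the other way: its 18 genes, tested or not, summed to 1075 to 1473 CPM in cone and 1744 to 2232 CPM in rod libraries. Such a sum weighs abundant genes most, among them Eno1, and the part of Eno1 in it is not given here.

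Of 10 other transporter genes, 2 were higher and 0 lower. They were Slc16a3, whose product MCT4 exports lactate, at 15.1, 9.12 and 8.19 CPM in cone and 0.225, 0.357 and 0.764 CPM in rod libraries (log2 fold change 4.49 ± 0.79, adjusted p 0.0005), and Slc2a3, the neuronal glucose transporter gene (1.53 ± 0.35, adjusted p 0.0053). No cone library of Slc16a3 came near a rod library. The rod values were all under 1 CPM and rest on few reads, so the size of that fold change is uncertain. Among 19 genes of glycolytic regulation and pyruvate entry, 2 were higher and 1 lower. Pdk1, a kinase that shuts pyruvate dehydrogenase off, was higher (1.49 ± 0.30, adjusted p 0.0015), and Pfkfb3, the gene of an activator of phosphofructokinase, was lower (-0.86 ± 0.27, adjusted p 0.043).

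Of 16 hypoxia-response genes outside glycolysis, 7 were higher and 2 lower in cone libraries at day 5, with a median log2 fold change of 0.53. The summed level of the 17 genes in the list, tested or not, overlapped at that day, at 1105 to 1349 CPM in cone and 1054 to 1448 CPM in rod libraries. The largest changes were falls, in Epas1, the gene of HIF-2alpha (-2.96 ± 0.39, adjusted p 1.41e-05), and Car12, a carbonic anhydrase gene (-2.63 ± 0.62, adjusted p 0.0067). Egln3 and Bnip3, named after their values were seen, led the rises with log2 fold changes of 2.20 and 1.65. Egln3 encodes an oxygen-sensing prolyl hydroxylase and Bnip3 a mitophagy receptor. Of 14 genes of the tricarboxylic acid cycle 0 were called, with 0 of 7 pentose phosphate genes higher and 1 lower (Rpe, -0.60 ± 0.18, adjusted p 0.033). The tricarboxylic acid cycle list had a median log2 fold change of -0.16.

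**Figure D3:**
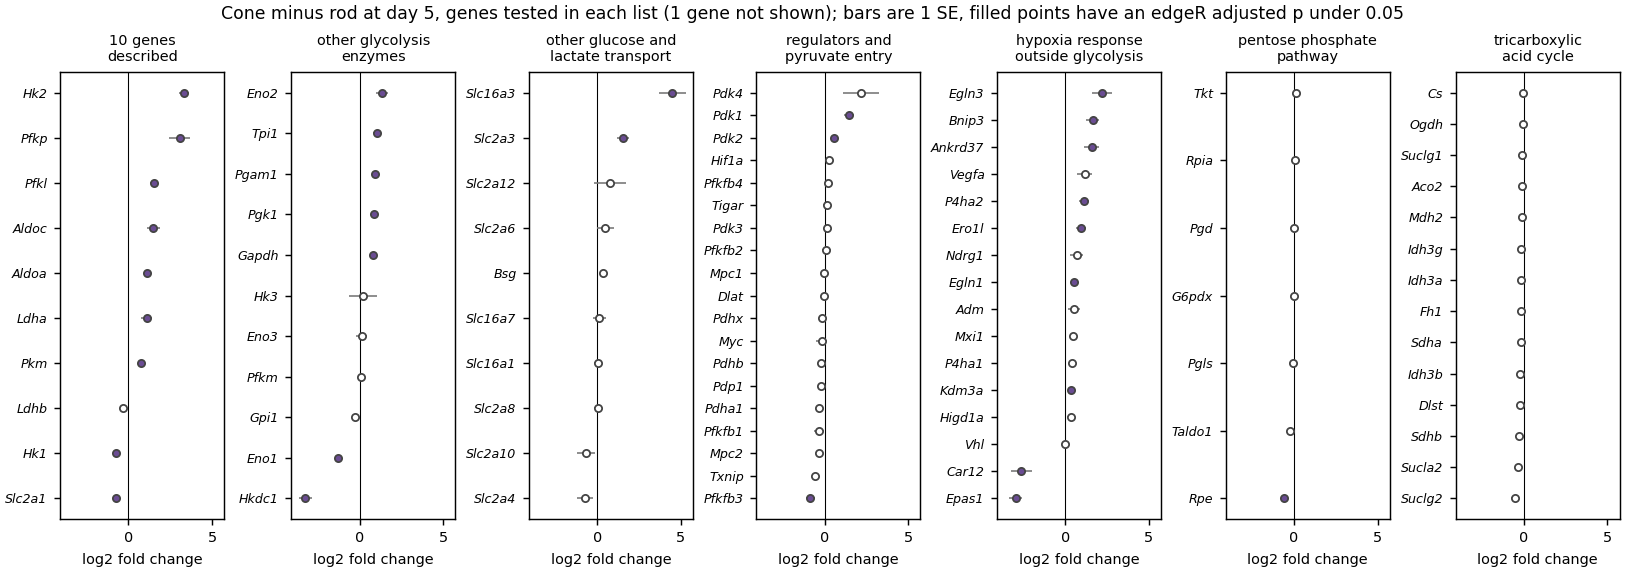
Cone minus rod log2 fold change at day 5 for the 10 genes and for the tested genes of 6 lists, 1 panel each, with 1 enzyme gene not shown, ordered within a panel. Bars are 1 SE and filled points have an edgeR adjusted p under 0.05; the 10 genes run from 3.35 (Hk2) to -0.75 (Slc2a1), and the tricarboxylic acid cycle panel has 0 filled points.

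By day 12 most of these differences were no longer called. Slc2a1 and Hk1 were lower in cone libraries, 2 of 10 against 10.1% of all genes (4.12% lower), and 0 were higher (5.98%). Slc2a1 was at 86.9, 92.5 and 98.5 CPM in cone and at 137.9, 241.6 and 153.7 CPM in rod libraries (log2 fold change -0.94 ± 0.20, adjusted p 0.0024). Hk1 was at 119.8, 166.1 and 145.1 CPM against 258.4, 238.6 and 226.0 CPM (log2 fold change -0.75 ± 0.17, adjusted p 0.0049). Both genes were without overlap. Without rod day 12 replicate 2 the values were -0.66 for Slc2a1 (adjusted p 0.035) and -0.76 for Hk1 (adjusted p 0.013). In a model of the 6 compared libraries alone neither was called (adjusted p 0.086 for Slc2a1 and 0.051 for Hk1). Mesenchyme markers summed to 429 to 562 CPM in cone and 55.5 to 107 CPM in rod libraries (5 of 9 higher, 0 lower), and their part was not tested.

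The rod day 12 group was split by its replicate 2. Pfkp was at 162.6 CPM in that library and at 14.7 and 18.0 CPM in the other rod libraries, Ldha at 419.8 against 118.6 and 170.3 CPM, and Aldoa at 391.7 against 187.3 and 195.7 CPM. The same library held the highest Slc16a3 of its group (10.2 against 1.21 and 1.44 CPM), the highest Pdk1 (50.1 against 16.7 and 20.9 CPM) and the highest Bnip3 (55.1 against 10.1 and 18.6 CPM), 3 genes picked after their values were seen. Its hypoxia-response sum was 2998 CPM against 1170 and 1872 CPM. With it, the cone minus rod log2 fold change of Pfkp at day 12 was -0.33 ± 0.60 (adjusted p 0.81), and without it 1.66 (adjusted p 0.043). Hk2 went from 0.54 (adjusted p 0.20) to 0.88 (adjusted p 0.036), so that 4 of the 10 were called without that library. Leaving out rod day 12 replicate 1 also gave 4, with Pfkl at -0.85 (adjusted p 0.015) and Ldha (adjusted p 0.037) lower in cone libraries.

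At day 21 only Pkm was called, 1 of 10 against 9.00% of all genes (5.86% higher and 3.14% lower). It was at 493.0, 571.2 and 422.2 CPM in cone and at 367.0, 272.0 and 370.8 CPM in rod libraries (log2 fold change 0.56 ± 0.17, adjusted p 0.042). The groups did not overlap. Leaving out any 1 library other than cone day 21 replicate 3 ended the call, with adjusted p up to 0.21. Another 4 genes had an unadjusted p under 0.05, among them Pfkp (log2 fold change 1.92 ± 0.64, adjusted p 0.058) and Aldoc (1.09 ± 0.36, adjusted p 0.059), which both passed with DESeq2 (adjusted p 0.032 and 0.042). Pfkp passed without cone day 21 replicate 1 (2.32, adjusted p 0.027) and stood at 0.87 (adjusted p 0.47) without cone day 21 replicate 2. Hk1, at -0.40, passed without rod day 21 replicate 2 (-0.59, adjusted p 0.036). Aldoc was at 67.6, 68.5 and 67.0 CPM in cone and at 32.1, 24.5 and 38.7 CPM in rod libraries, and cone and rod did not overlap. Microglia markers were higher in cone libraries at this day, 5 of 6 tested, with sums of 15.1 to 38.8 against 0.540 to 2.61 CPM, and their part was not tested.

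At day 35, 2 of 10 were called, against 12.3% of all genes, and both were lower in cone libraries (4.51% of all genes, with 7.77% higher). Slc2a1 was at 101.9, 128.2 and 114.8 CPM in cone and at 196.5, 138.7 and 195.4 CPM in rod libraries (log2 fold change -0.62 ± 0.20, adjusted p 0.038). Hk1 was at 124.4, 133.2 and 123.4 CPM against 196.1, 170.4 and 226.1 CPM (log2 fold change -0.64 ± 0.17, adjusted p 0.014). Cone and rod were again apart at both genes. The Slc2a1 call was lost without replicate 1 or 3 of either condition (adjusted p 0.11 to 0.15), and the Hk1 call without cone day 35 replicate 3 (adjusted p 0.052) or rod day 35 replicate 3 (adjusted p 0.070). Microglia markers were higher in cone libraries at this day, 6 of 6 tested, with sums of 16.0 to 91.1 CPM against 1.36 to 1.94 CPM. Mesenchyme markers were higher too, 7 of 9 tested, with sums of 725 to 4140 against 380 to 908 CPM. Their part in the values of the 10 genes was not tested.

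Over the mean of days 5 to 35, 7 of the 10 were called against 27.8% of all genes, 5 higher in cone libraries (15.6% of all genes) and 2 lower (12.2%). The higher genes were Pfkp (log2 fold change 1.54 ± 0.31, adjusted p 0.00047), Hk2 (1.10 ± 0.13, adjusted p 4.09e-07), Aldoc (0.57 ± 0.18, adjusted p 0.020), Pkm (0.39 ± 0.09, adjusted p 0.0013) and Aldoa (0.38 ± 0.10, adjusted p 0.0075). The lower genes were Slc2a1 (-0.69 ± 0.10, adjusted p 5.88e-06) and Hk1 (-0.63 ± 0.09, adjusted p 2.81e-06). Ldha was not called on this mean (0.04 ± 0.17, adjusted p 0.90). Without the replicate 1 libraries Aldoc fell to 0.24 (adjusted p 0.43) and Aldoa to 0.31 (adjusted p 0.12), and without the replicate 2 libraries Aldoc was at 0.63 (adjusted p 0.071). Pfkl was just short of the threshold (0.31, adjusted p 0.055) and passed with DESeq2 (0.037), RLE factors (0.047), no filter (0.048) and voom weights (0.0066). Ldhb, at -0.16, passed with voom weights (adjusted p 0.031) and without the replicate 2 libraries (-0.29, adjusted p 0.025). Without rod day 12 replicate 2, 8 of 10 were called, with Pfkl added (0.41, adjusted p 0.0027) and Pfkp at 2.03 (adjusted p 1.24e-07).

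An F test asked whether the gap between cone and rod libraries varied over days 0 to 35, and it called 5 of the 10 against 9.22% of all genes. Hk2 had an adjusted p of 1.96e-05, Pfkl 0.0015, Slc2a1 0.022, Aldoa 0.026 and Aldoc 0.039. For Hk2 the differences were 0.01, 3.35, 0.54, 0.10 and 0.39 on the log2 scale at days 0, 5, 12, 21 and 35. For Slc2a1 they were -1.72, -0.75, -0.94, -0.45 and -0.62, below 0 at all 5 days. Hk1 stood below 0 at all 5 days as well, and its difference was not shown to change with day (adjusted p 0.63). Without the replicate 3 libraries only Hk2 was called, without the replicate 1 libraries only Hk2 and Pfkl, and without the replicate 2 libraries Aldoc lost its call (adjusted p 0.28) while Pfkp gained 1 (adjusted p 0.038). Calls over all genes fell as well, from 1674 of 18150 with every library to 54 of 18167 without replicate 3. They were 772 of 18406 without replicate 1 and 1325 of 18221 without replicate 2. The lost calls are to be read against these counts. Without rod day 12 replicate 2, Hk2, Pfkl, Slc2a1, Aldoa and Aldoc were called, with adjusted p of 0.029 or less.

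The time courses were read against the primed cells of the same condition, so the days of a condition share their control libraries. Of the 10 genes, 8 were called in cone cultures at day 5 (22.3% of all genes), with 6 (48.4%), 6 (52.6%) and 5 (57.7%) after 12, 21 and 35 days. In rod cultures the numbers were 4 (17.5%), 7 (42.4%), 8 (50.8%) and 6 (55.6%) in the same order. From day 12 on, much of the transcriptome was called, so the counts of the 10 genes are to be read against those shares.

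Hk2 and Aldoc had the largest rises. From 4.53, 3.56 and 2.41 CPM in cone primed cells, Hk2 was at 22.3 to 41.1 CPM in all 12 cone libraries from day 5, with log2 fold changes of 2.98, 3.16, 3.19 and 3.44 at days 5, 12, 21 and 35. In rod cultures it was at 3.48 CPM or less in the 3 day 5 libraries (log2 fold change -0.36 ± 0.33, adjusted p 0.48) and at 12.5 to 35.3 CPM later, with log2 fold changes of 2.63, 3.10 and 3.06 at days 12, 21 and 35, and 2.25 at day 12 without rod day 12 replicate 2. The rise of Hk2 was thus called at day 5 in cone cultures and from day 12 in rod cultures. Aldoc went from 1.68 to 2.39 CPM in cone primed cells to 67.0 to 68.5 CPM at day 21 (log2 fold change 5.04 ± 0.47). It went from 1.98 to 3.80 CPM in rod primed cells to 73.7 to 79.5 CPM at day 35 (4.78 ± 0.46). All 8 comparisons called it higher, although the rod day 5 call was lost without rod primed replicate 3 (adjusted p 0.051).

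Hk1 rose in all 8 comparisons, by log2 fold changes of 0.83 to 1.25 in cone and 0.64 to 1.15 in rod cultures. Slc2a1 fell in all 4 rod comparisons (-0.96, -1.04, -1.26 and -1.04) and was called in 0 of the 4 cone comparisons. Without rod day 12 replicate 2 the day 12 values were -1.36 for Slc2a1 and 1.12 for Hk1, both called. Its group means ran from 365 CPM in rod primed cells through 188 CPM at rod day 5, 178 CPM at rod day 12, 177 CPM at rod day 35 and 152 CPM at rod day 21 down to 115 CPM and less in cone and untreated groups. Neighbours in that order overlapped, except that rod primed libraries lay above all others and rod day 21 libraries (132.6 to 169.2 CPM) lay above those of cone day 35 (101.9 to 128.2 CPM).

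Aldoa and Pfkl followed Hk2 in part. Aldoa rose at all 4 cone days (1.01, 0.78, 0.89 and 1.22) and at rod days 12, 21 and 35 (1.06, 0.53 and 1.08), but not at rod day 5 (-0.08 ± 0.21, adjusted p 0.84). Pfkl rose at cone days 5, 21 and 35 (1.22, 0.97 and 0.96) and at rod days 12, 21 and 35 (1.26, 0.65 and 1.24). Without rod day 12 replicate 2 the day 12 rises were smaller, at 0.59 for Aldoa and 0.81 for Pfkl, and still called. At rod day 21 the calls of Aldoa and Pfkl were each lost in 4 of the 6 fits without 1 library.

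Among the cone days, Pfkp rose at day 5 only (log2 fold change 1.94 ± 0.62, adjusted p 0.024), a call lost in 4 of 6 fits without 1 library, with adjusted p up to 0.084. At rod day 12 it was called at 1.61 ± 0.63 (adjusted p 0.041), but without rod day 12 replicate 2 the value was -0.42 (adjusted p 0.52), and the call was lost in 4 of 6 fits without 1 library. Ldha was called at cone day 5 alone (1.33 ± 0.34, adjusted p 0.0054) and was within 0.42 of the primed level on the log2 scale at the other 7 points. Ldhb fell at cone days 5, 12 and 21 (-0.82, -0.77 and -0.51) and at rod days 5 and 21 (-0.50 and -0.41). Both rod calls of Ldhb were lost in 5 of 6 fits without 1 library, and the cone day 21 call in 2 of 6. Pkm fell at cone day 12 (-0.49 ± 0.17, adjusted p 0.020) and rod day 21 (-0.56 ± 0.17, adjusted p 0.0085), calls lost in 3 and 2 of 6 such fits. At rod day 12 Pkm was at 292.7, 570.5 and 346.5 CPM and was not called (-0.30, adjusted p 0.16), but without replicate 2, the highest of these, it was lower (-0.67, adjusted p 0.00076), as it was with voom weights (-0.49, adjusted p 0.00033). At rod day 5 it was at -0.46 (adjusted p 0.065) and passed with DESeq2 (0.045), voom weights (0.013) and the compared libraries alone (0.024).

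Of the 12 other glycolytic enzyme genes, 9 were higher and 2 lower than in primed cells at cone day 35, where 31.1% of all genes were higher and 26.5% lower. At rod day 35, 6 were higher and 3 lower, against 29.4% and 26.2% of all genes. Eno1 went from 185.1 to 228.5 CPM in cone primed cells to 2120 to 2675 CPM at cone day 35 (log2 fold change 3.48 ± 0.20). At rod day 35 it was at 2905 to 5207 CPM, a log2 fold change of 2.38 ± 0.19 over rod primed cells, whose level is not given. The 18 genes of the list, tested or not, summed to 1127 to 1378 CPM in rod primed and 576 to 604 CPM in cone primed cells. Photoreceptor markers fell over the same time, with 8 of 12 lower at cone day 35 and 9 of 12 at rod day 35. Muller glia markers rose, with 8 of 10 higher at cone day 35 and 6 of 10 at rod day 35 (sums of 6179 to 8606 CPM at day 35 against 826 to 2464 CPM at day 0). Their part in the time courses was not tested.

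Within a library the ratio of 2 isozyme genes does not depend on scaling between libraries, so 4 such ratios of raw counts were compared between cone and rod over days 5 to 35. The test was an exact two-sided permutation of the labels within each day (160000 arrangements), with p-values adjusted over the 4 ratios.

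The log2 ratio of Hk2 over Hk1 was higher in cone libraries by 1.76 (p 1.25e-05, adjusted p 5e-05). At day 5 it was -1.77, -2.26 and -1.87 in cone and -5.70, -6.55 and -6.02 in rod libraries, and at day 35 it was -1.60, -2.02 and -1.65 against -3.38, -2.40 and -2.68. Cone and rod libraries did not overlap at any of the 4 days. Pfkp over Pfkl was higher in cone libraries by 1.28 (p 0.0005, adjusted p 0.001), with 1.18, 1.16 and 1.12 in cone and -0.32, -0.39 and -0.37 in rod libraries at day 5. That value for Pfkp carries the uncertainty of its overlap with Pitrm1. Without rod day 12 replicate 2 the differences were 1.84 for Hk2 over Hk1 and 1.47 for Pfkp over Pfkl. The Hk2 over Hk1 difference was 0.98 with day 5 left out (adjusted p 0.001). On TPM plus 1 it was 1.17 (adjusted p 0.0025), while Pfkp over Pfkl was 0.36 (adjusted p 0.19). Hk2 was listed at 0 TPM in 22 of 33 libraries and at 0.651 TPM at most. The TPM value of Hk2 over Hk1 thus rests mainly on Hk1 and says little about Hk2.

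Ldha over Ldhb differed by 0.24 (adjusted p 0.48) and Aldoc over Aldoa by 0.14 (adjusted p 0.51), neither of them past the threshold, and without rod day 12 replicate 2 the values were 0.37 and 0.13. At day 5 alone Ldha over Ldhb was 3.60, 3.58 and 3.63 in cone and 1.75, 2.68 and 2.21 in rod libraries, with no overlap. The cone values of the later days, 1.16 to 2.61, overlapped those of rod libraries (1.35 to 3.38). With 3 libraries a side an exact test within a day cannot go below 0.1, so single days are given as values.

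**Figure D4:**
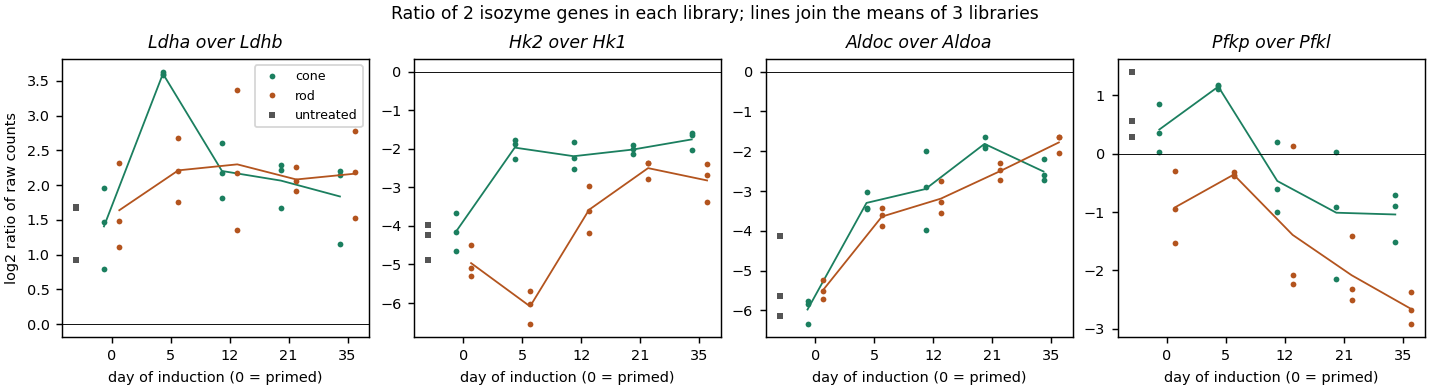
Log2 ratio of raw counts of 2 isozyme genes in each library, by day of induction (equally spaced), with lines joining means of 3 libraries for cone (green) and rod (brown) and squares for untreated cells. Hk2 over Hk1 lies higher in cone than in rod libraries at every day from 5 to 35, and Ldha over Ldhb in cone libraries peaks at day 5 near 3.60.

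Across the 11 group means of log2 CPM, 6 pairs of the 10 genes had a Pearson r over 0.8, all among Hk2, Pfkl, Aldoa and Aldoc, the highest being Aldoa with Pfkl at 0.965. Hk1 with Pkm had the lowest at -0.630. Among 9336 other genes the pattern most like Pfkl (r 0.978) and Aldoa (r 0.973) was that of Tpi1, the triosephosphate isomerase gene of the same pathway. The nearest to Pfkp was Myo7a (r 0.958), to Ldha Cog7 (r 0.920), to Slc2a1 Eefsec (r 0.889) and to Aldoc Pofut1 (r 0.983). These are descriptions over 11 means that share libraries within a group, with no test.

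The abundance tables in TPM could not serve for levels. Hk2 and Ldhb were each listed at 0 TPM in 22 of 33 libraries and Aldoc in 11, although Ldhb had at least 276 counts in each library where it was listed at 0. A limma test on these values called 0 of the 10 genes between cone and rod at any day. It called few genes of any kind: 48 of 18150 for a change with day, against 1674 by edgeR on counts. The 0 of 10 is therefore not read as a result about these genes.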

How the data were processed

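RNA-seq of 33 mouse retinal progenitor libraries was used as deposited. Gene counts were made by the authors with HTSeq, after alignment with HISAT2 to GRCm38, per the submitters' processing notes. The deposited TPM, FPKM and coverage values come from StringTie, per the same notes and the file headers; FPKM and coverage were not used. Versions and strand setting are not given in the sources used here.

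Counts were scaled by TMM and tested with edgeR 4.0.16 (R 4.3.3) in 1 quasi-likelihood model of 11 groups, after filterByExpr with a minimum count of 10, with Benjamini-Hochberg adjustment over 18150 genes in each of 17 comparisons. Reads not assigned to a gene were left out: 26.9% to 34.9% of the reads listed in each table lay in genes. Per-length levels used GENCODE exons. The code was tested on simulated data. The 10 genes and the lists were chosen with earlier results of these data known. All 10 genes are named where called. Of each pathway list the 2 called genes with the largest change are named, and most-alike genes are the highest Pearson r over group means, searched above a log2 CPM of 3 on average. Some genes that these rules name are not reported here. Alternatives were RLE factors, other filters, DESeq2 1.42.0, limma 3.58.1 (voom weights, and log2 of TPM plus 1), the compared libraries alone, a replicate block, tests without rRNA and mitochondrial genes, and leaving out libraries. Leaving out rod day 12 replicate 2 across the mean of days and the F test was chosen after seeing the data.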

Additional observations from a re-analysis of the deposited data

Results flagged for a closer look

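For 5 of the 10 genes the gap between cone and rod libraries differed from day to day by edgeR's F test over days 0, 5, 12, 21 and 35. The adjusted p was 1.96e-05 for Hk2, 0.00146 for Pfkl, 0.0223 for Slc2a1, 0.0256 for Aldoa and 0.0392 for Aldoc. Hk2, Pfkl, Aldoa and Aldoc stood higher in cone libraries at day 5, while Slc2a1 stood lowest relative to rod libraries at day 0. Hk2 kept its call when the libraries of any 1 replicate number were left out. Pfkl lost it without replicate 3 (adjusted p 0.164), Slc2a1 without replicate 1 (0.122) or 3 (0.473), Aldoa without replicate 1 (0.161) or 3 (0.260), and Aldoc without replicate 1 (0.0679), 2 (0.276) or 3 (0.160). These losses came with fewer calls over all genes. The F test called 1674 of 18150 genes with every library, but 772 of 18406 without replicate 1 and 54 of 18167 without replicate 3.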

How the results depend on the processing

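With RLE factors or a mean of at least 1 CPM, 169 and 170 of 170 values kept their direction and side of the threshold, and with DESeq2 165 did. Correlations between libraries of the same replicate number ranged from -0.226 to 0.513, and no comparison had 3 over 0.1. With 3 correlations in each comparison this does not settle whether such libraries share a culture. With the replicate block 168 of 170 values kept their call. It ended those of Pkm at day 21 (0.55, adjusted p 0.050, so 0 genes called there) and Pfkp at rod day 12 (1.26, adjusted p 0.084).

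At day 12, 0 genes were called with the compared libraries only and 4 with voom weights; at day 21 it was 3 with DESeq2, 2 without a filter, 5 with voom weights and 0 without rRNA and mitochondrial genes; at day 35 it was 4 with the compared libraries only, with Pfkp (1.48, adjusted p 0.0054) and Aldoc (-0.54, adjusted p 0.042) added. Leaving out 1 library gave 2 to 4 genes at day 12, 0 to 1 at day 21, 0 to 2 at day 35, 6 to 8 at day 5, 2 to 4 at rod day 5 and 5 to 6 at rod day 21; leaving out a replicate number gave 5 to 8 for the mean of days and 1 to 5 for the F test.

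TPM values, many of them listed at 0, gave 0 called genes at day 0, day 5, day 12, day 21, day 35, for the mean of days, rod priming, cone day 12, rod day 5, rod day 21 and the F test. They gave 3 at cone day 5 and 1 each at cone days 21 and 35 and rod days 12 and 35. Over all 18150 genes the TPM values gave 938 calls at cone day 12 and 871 at cone day 21, against 8784 and 9554 on counts. On TPM the sign turned for Pfkl at day 5 (-0.21) and against primed cells at cone days 21 (-0.12) and 35 (-0.24) and rod days 12 (-0.26), 21 (-0.34) and 35 (-0.70), for Aldoa at rod days 21 (-0.42) and 35 (-0.63), and for Hk2 at rod day 12 (-0.0809). Pfkp at day 12 turned to 1.29 with voom weights and 1.66 without rod day 12 replicate 2 (-0.92 to 1.66 over libraries left out), and its rod day 12 change turned to -0.0323 and -0.42 (-0.42 to 2.08).

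The difference in Ldha over Ldhb turned to -0.15 without day 5 and ranged from -0.0244 to 0.51 when a replicate number was left out. Aldoc over Aldoa turned to -0.31 on TPM and -0.0480 without day 21, and ranged from -0.10 to 0.36. Pfkp over Pfkl fell short on TPM at 0.36 and otherwise ranged from 1.16 to 1.47. Except where the choice itself removes samples or genes, the cause was not tested. No limit of detection was computed; the SE of a difference between cone and rod libraries at 1 day ran from 0.17 to 0.65 on the log2 scale over the 10 genes.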
